A study of Rattus norvegicus with 3 samples.

Results

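In the rat common carotid artery, 157 of 5172 genes measured were at least 2-fold higher 21 days after balloon injury than in an uninjured artery, while at day 7 they lay within 2-fold of it. RNA came from whole arteries of male Wistar rats in 3 groups, uninjured, 7 days after balloon injury and 21 days after balloon injury, with 1 one-colour Agilent array in each. The design text describes independent experiments with different rats at each time, and arrays beyond these 3 were not analysed here. No source used here gives the age of the rats. With 1 array per group there is no biological replicate and no test, and the ± beside a log2 ratio is a technical SD from replicate spots of the same array. The members were chosen by the measured day 21 and day 7 ratios, so these ratios describe the set and support nothing further.

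A gene entered the set when its log2 ratio to uninjured was at least 1 at day 21 and between -1 and 1 at day 7. By this rule day 21 is the highest of the 3 arrays in every member. It needed a probe present on both array designs and well above background on all 3 arrays, and the brightest such probe stood for the gene. All 157 therefore passed the filter on dim probes. Signals are given as multiples of each array's 75th percentile, which was 295 intensity units for the uninjured array, 493 for day 7 and 845 for day 21. Symbols of several chemokine, cathepsin, collagen, protease and proton pump families were left out by the rule, which removed 6 genes that otherwise met it. They were Ctsb, Ctsd and Ctsc (lysosomal proteases), Ccl2 and Cxcl1 (chemokines) and Il17re (an interleukin receptor subunit), and with them the count was 163, or 3.15% of the genes measured.

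Balloon injury strips the endothelium and stretches the arterial wall. Smooth muscle cells then lose contractile proteins, divide and migrate to build a neointima, while monocytes enter and become macrophages that clear debris through lysosomes. Complement, antigen presentation and lymphocytes belong to the immune response of the vessel wall, and fibroblast-like cells of the outer layer add matrix. In these whole arteries a change in the number of cells of a type and a change in RNA per cell cannot be told apart.

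The tissue label was checked on 14 measured contractile smooth muscle genes. All 14 were at least 2-fold lower at day 21 and 12 were at day 7, with median log2 ratios of -2.22 and -2.24. Over all genes measured, 697 (13.5%) were at least 2-fold lower at day 21 and 715 (13.8%) at day 7. The uninjured and day 21 arrays shared a design and a scan, whereas the day 7 array was of another design and had its own scan, so time and array design cannot be told apart for any comparison with day 7. Probes well above background made up 59.8%, 76.5% and 66.7% of those on the uninjured, day 7 and day 21 arrays.

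Promoters are shown for 4 members in which a motif search found a match to the NF-kB or the antioxidant response motif. Components of both pathways (Nfkbia, Prdx1) were in the set, but these motifs were picked from a longer search. The promoter of the redox member Txnrd1 held no antioxidant response match and is not shown. Each is the 250 bases before the gene's start in RefSeq, build GRCr8, 5′ to 3′ on the gene's strand, with the motif in capitals. The NF-kB motif searched was GGGA, 1 base of any kind and TTTCC, and the antioxidant response motif TGACNNNGC, both on both strands. The capitals mark the NF-kB match in Nfkbia, Tapbp and Stap2 and the antioxidant response match in Prdx1. The first 3 also hold an antioxidant response match, left in lower case, and the stretch marked in Prdx1 overlaps a match to the AP-1 motif TGANTCA. Nfkbia lies at chr6:78597073-78597322 (minus strand), Tapbp at chr20:4967878-4968127 (minus strand), Stap2 at chr9:924381-924630 (minus strand) and Prdx1 at chr5:135383656-135383905 (plus strand).
Nfkbia: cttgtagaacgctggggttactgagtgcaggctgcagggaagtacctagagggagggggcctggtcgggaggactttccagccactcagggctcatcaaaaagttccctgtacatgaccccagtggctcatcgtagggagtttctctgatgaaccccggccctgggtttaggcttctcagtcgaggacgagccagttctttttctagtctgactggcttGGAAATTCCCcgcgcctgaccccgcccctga
Tapbp: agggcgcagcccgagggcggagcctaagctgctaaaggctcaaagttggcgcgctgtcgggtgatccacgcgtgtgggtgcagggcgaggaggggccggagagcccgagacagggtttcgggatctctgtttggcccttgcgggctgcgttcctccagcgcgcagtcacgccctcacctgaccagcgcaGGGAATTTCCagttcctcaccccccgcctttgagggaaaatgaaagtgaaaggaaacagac
Stap2: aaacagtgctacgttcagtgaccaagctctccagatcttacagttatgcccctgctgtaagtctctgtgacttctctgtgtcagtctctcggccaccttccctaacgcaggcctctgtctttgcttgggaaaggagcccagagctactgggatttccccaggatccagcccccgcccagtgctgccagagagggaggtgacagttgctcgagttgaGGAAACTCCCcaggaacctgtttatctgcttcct
Prdx1: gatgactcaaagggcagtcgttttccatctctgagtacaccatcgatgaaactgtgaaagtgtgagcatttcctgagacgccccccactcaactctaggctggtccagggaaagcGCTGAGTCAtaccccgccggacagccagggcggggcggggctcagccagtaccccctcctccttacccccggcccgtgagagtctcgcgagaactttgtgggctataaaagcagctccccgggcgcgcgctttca

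Among the 125 members with a promoter in the RefSeq table, 3 held the NF-kB motif (2.40%, against 0.496% of the 4238 measured genes with a promoter), and these were Nfkbia, Tapbp and Stap2. The antioxidant response motif was present in 24 members (19.2%, against 12.6%). Promoters poor in CpG (observed over expected under 0.6) made up 37.6% of members, 34.9% of all genes and 57.4% of genes higher on both days. In the same order, members against all genes, the octamer ATGCAAAT occurred in 3.20% and 1.30%, the C/EBP motif TTGCNNAA in 11.2% and 8.14%, CCAAT in 41.6% and 35.6%, and the single glucocorticoid site AGAACA in 13.6% and 11.3%. Shares were closer for the E-box CACGTG (9.60% and 8.52%), its longer form GTCACGTG (4.0% and 3.59%) and the PU.1 motif GAGGAAGT (2.40% and 2.34%). Members had the lower share for AP-1 (3.20% and 4.58%), TATAAA (4.80% and 7.90%) and the interferon response motif of GAAA, 2 bases of any kind and GAAA (1.60% and 2.52%). The glucocorticoid response palindrome, AGAACA and TGTTCT with 3 bases between, was in none of the members' promoters and in none of the others. These shares describe letters in the window and were not tested.

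At day 21, 528 genes (10.2%) were at least 2-fold higher than in the uninjured artery, and 354 genes (6.84%) were higher on both days. The set is 3.04% of the genes measured. Its median log2 ratio was 1.36 at day 21 (highest 3.66) and 0.34 at day 7 (lowest -0.90), against -0.17 and 0.10 over all genes. At day 21, 23 members were at least 4-fold higher and 62 had a log2 ratio of at least 1.5. At day 7, when 980 genes (18.9%) were at least 2-fold higher than uninjured, the members' ratio was above 0 for 110 members and below 0 for 47, and for 83 it was within 2 technical SD of 0. Day 21 exceeded day 7 by at least 2-fold in 93 members and in 533 genes (10.3%) of all measured. In 27 members the days were within 2 technical SD of each other. Both thresholds were cleared by more than 2 technical SD in 33 members. The set depends on how the arrays are put on 1 scale: when every array was scaled on the probes of its own design the rule gave 324 genes and kept 78 of the 157, and with the normexp background correction it gave 107 and kept 57. The normexp setting adds an offset of 50 to every intensity, and the effect of this offset on the ratios of dim probes was not tested. Just inside the day 21 threshold was Tprn, at 1.0, and just outside was Usp42, also at 1.0 after rounding. At the upper day 7 threshold, B3galt4 (1.0) was inside and Slc28a2 (1.0, with 3.08 at day 21) outside, and at the lower, Tmpo (-0.90) was inside and Tmod3 (-1.0) outside.

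**Figure D1:**
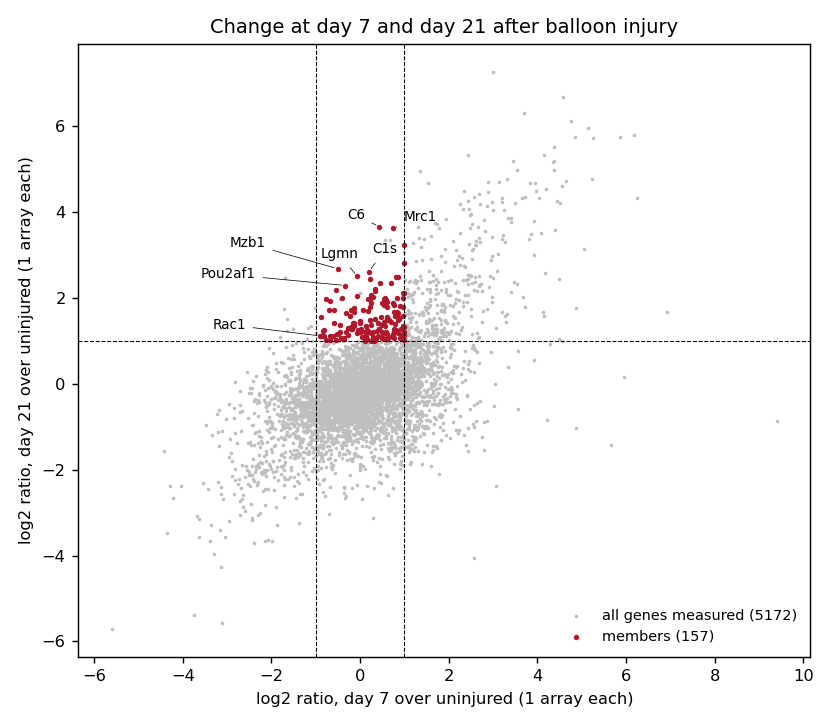
Log2 ratio to the uninjured artery at day 7 (x axis) and day 21 (y axis) for 5172 genes, 1 array per time point, with the 157 members in red and dashed lines at the thresholds. Members lie above 1 on the y axis and between -1 and 1 on the x axis, and C6 and Mrc1 are the highest.

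Complement is a cascade of plasma proteins that tags and lyses targets. C6, a component of the membrane attack complex, had a signal of 0.313 in the uninjured artery, 0.424 at day 7 and 3.96 at day 21. It was 12.6-fold higher at day 21 (log2 3.66 ± 0.17), the largest ratio among members, and 0.44 ± 0.15 at day 7. C1s, a protease of the first complement complex, had signals of 1.95, 2.25 and 12, which is 6.12-fold higher at day 21 (2.61 ± 0.13) with 0.20 ± 0.13 at day 7. Its partner protease C1r gave 3.93, 4.37 and 8.08, a smaller ratio of 1.04 ± 0.13, and C1r and C1s are adjacent genes on chromosome 4. Cfhr4, of the factor H-related family, gave 2.10, 2.98 and 4.43; its probe may not be unique within that family. In all 4 the day 21 array was highest, which the rule requires. With the 75th percentile taken over all shared unflagged probes the ratio of C1r was 0.96, under the threshold. Of 10 measured genes of the complement list, 3 were members and the other 7 were higher on both days, among them C1qa (log2 4.70 at day 21 and 3.13 at day 7), C3 (5.50 and 4.38) and C2 (5.74 and 5.86).

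The lysosome degrades material taken up by cells, and 20 members act in lysosomes, endosomes or their acidification, with a median log2 ratio of 1.57 at day 21 and 0.11 at day 7. Lgmn, an asparagine-specific protease, had signals of 1.59 uninjured, 1.51 at day 7 and 9.02 at day 21, a 5.67-fold ratio (2.50). Only the day 21 array was high. Npc2, which moves cholesterol out of lysosomes, gave 1.32, 0.883 and 4.35, with 1.72 ± 0.14 at day 21 and -0.58 ± 0.12 at day 7. Atp6ap2, an accessory protein of the proton pump, gave 0.584, 0.329 and 1.36. In both genes the day 7 array was the lowest of the 3. Psap, the precursor of saposins that assist sphingolipid breakdown, differed in being partly raised at day 7, with signals of 0.648, 1.26 and 2.83. Lamp2, a lysosomal membrane protein, was similar at 0.224, 0.440 and 0.774. Slc48a1, a haem transporter, gave 0.271, 0.402 and 1.09. Of 25 measured genes of the lysosome and autophagy list, 6 were members and 5 were higher on both days, including Lipa (3.73 and 1.68) and Acp5 (3.63 and 2.48). The list's median ratio was 0.93 at day 21 and 0.56 at day 7.

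**Figure D2:**
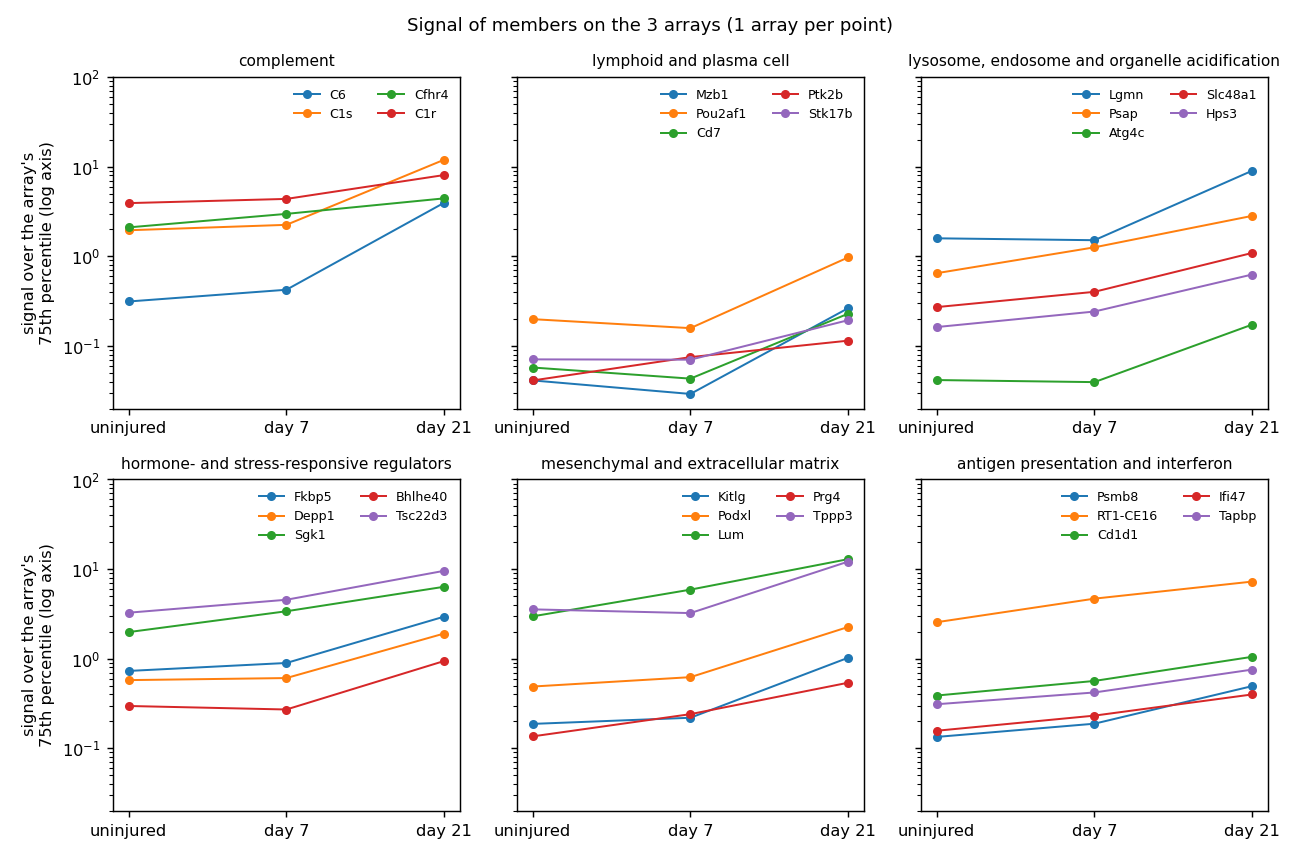
Signal as a multiple of each array's 75th percentile (log axis) in the uninjured, day 7 and day 21 arteries for members of several role groups, 1 array per point. Those shown have the highest day 21 ratios of their group. This choice and the rule favour a rise after day 7, as for C6 from 0.424 to 3.96. Lum gave 2.97, 5.90 and 12.9, so it was already higher at day 7.

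Among myeloid genes, Mrc1, the macrophage mannose receptor, had signals of 0.0609, 0.102 and 0.747, a 12.3-fold ratio at day 21 (3.62 ± 0.23) with 0.74 ± 0.39 at day 7. With normexp background correction the day 21 ratio of Mrc1 was 1.88. Lgals3, a galactose-binding lectin abundant in macrophages, gave 20.3, 22.8 and 79.0, or 3.90-fold. Both were highest at day 21, which the rule requires. Pycard, the inflammasome adaptor, gave 0.542, 0.771 and 1.43. Icam1, an adhesion molecule for leukocytes, gave 1.04, 1.73 and 2.22, and Tlr3, a sensor of double-stranded RNA, 0.441, 0.661 and 0.912, so both stood between at day 7. Nfkbia, the inhibitor that holds NF-kB in the cytoplasm, gave 3.0, 3.77 and 6.11 (1.02 ± 0.13 at day 21, and 0.95 when scaled over all shared unflagged probes). Most macrophage genes were not in the set: of 15 measured, Mrc1 was the 1 member and 12 were higher on both days, with list medians of 4.06 at day 21 and 3.47 at day 7. Whether macrophage content moved with the members was not tested. Of 13 measured Toll-like receptor and NF-kB genes, 3 were members and 6 were higher on both days.

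Antigen presentation loads peptides or lipids for recognition by T cells. Psmb8, an immunoproteasome subunit, had signals of 0.134, 0.188 and 0.494, or 3.69-fold at day 21 (1.88 ± 0.20). Tapbp, which helps load peptide on class I molecules, gave 0.310, 0.420 and 0.755, and Cd1d1, which presents lipids, 0.388, 0.564 and 1.05. RT1-CE16, a class I gene of a large family that its probe may not separate, gave 2.55, 4.68 and 7.25. In each, day 7 lay between uninjured and day 21, and with normexp the day 21 ratio of Tapbp was 0.91. Of 10 measured genes of the list, 4 were members (Psmb8, Tapbp, Cd1d1 and the protease Lgmn; RT1-CE16 is not on it) and 4 were higher on both days, including the class II genes RT1-Bb (5.79 and 6.19) and Cd74 (5.71 and 5.26).

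The role group named lymphoid and plasma cell held 14 members, with a median log2 ratio of 1.22 at day 21 and 0.06 at day 7. Of these, only Mzb1, Pou2af1 and Zap70 are on the B and plasma cell or T and NK cell lists. Others, such as Cd47, Fli1 and Skap2, are on neither, so the 14 are not a count of lymphocyte markers. Mzb1, an endoplasmic reticulum protein of B and plasma cells, had signals of 0.0412, 0.0291 and 0.264, or 6.4-fold at day 21 (2.68 ± 0.32). Its day 7 ratio of -0.50 ± 0.98 has a wide technical spread, and normexp background correction brought its day 21 ratio to 0.65. Pou2af1, a B cell transcriptional coactivator, gave 0.199, 0.158 and 0.972, or 4.89-fold (2.29 ± 0.18), with -0.33 ± 0.23 at day 7. Both were high on the day 21 array alone. They were the only measured genes of 11 B and plasma cell list genes on shared probes. Of the 11, 5 were well above background in the uninjured artery, 6 at day 7 and 10 at day 21. Intensities before scaling, uninjured and at day 21, were 39.0 and 56.8 for Cr2 and 16.5 and 32.0 for Vpreb3. Both rose by a smaller factor than the arrays' scaling values, 295 and 845, so both were lower at day 21 after scaling. Cd79b (19.0 and 70.7) rose by a larger factor. Blk and Cd22 were lower at day 21 than at day 7, and Blnk and Btk were higher. Irf4 was well above background at day 21 alone. Tnfrsf17, the plasma cell receptor BCMA, was well above background at day 21 alone, at least 4.47-fold over uninjured and at least 5.52-fold over day 7, where the bound uses the lowest signal well above background on the dim array. Among T cell genes Zap70, a kinase of the T cell receptor, gave 0.0751, 0.0922 and 0.174, and its day 21 ratio of 1.21 was 0.042 with normexp. Of 9 measured T and NK cell genes it was the 1 member, and Cd3g (2.07 and 1.14) and Cd6 (2.52 and 1.65) were higher on both days. The list's median ratio was only 0.19 at day 21 and 0.30 at day 7, and 1 of its genes was at least 2-fold lower at day 21.

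Several members respond to hormones or stress. Fkbp5, a chaperone partner of the glucocorticoid receptor, had signals of 0.730, 0.895 and 2.95, or 4.04-fold (2.01 ± 0.15). Sgk1, a kinase, gave 1.98, 3.38 and 6.35. Tsc22d3, also called GILZ, gave 3.26, 4.55 and 9.56. These are known targets of the glucocorticoid receptor, and the rule requires each to be highest at day 21. A glucocorticoid-responsive list was written after the members had been seen: 5 of its 18 measured genes were members (27.8%) and 7 were higher at day 21. It was later shortened, with its values known, to genes whose regulation is better established, and then 4 of 10 were members (40.0%) and 5 were higher at day 21. The first version is the one plotted, neither count is independent of the members, and Klf9, another known target, was lower at -1.08. In the authors' deposited table Fkbp5 was 3.15 at day 21 and 2.82 at day 7. Whether its row there holds the same probe on all 3 arrays was not tested, so its day 7 value is not settled. Bhlhe40, a transcriptional repressor of the circadian clock, gave 0.297, 0.271 and 0.942, and Depp1, a gene induced by progesterone, 0.577, 0.608 and 1.91.

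Mesenchymal and matrix members numbered 15, with a median log2 ratio of 1.55 at day 21 and 0.23 at day 7. Kitlg, the ligand of the receptor Kit, had signals of 0.187, 0.219 and 1.02, or 5.47-fold (2.45 ± 0.18). Lum, a proteoglycan that organises collagen fibrils, gave 2.97, 5.90 and 12.9, with the day 7 artery already at 0.99. Pdgfra, a growth factor receptor of fibroblasts, gave 0.882, 0.80 and 2.22, and Sfrp2, a Wnt antagonist, 2.07, 1.99 and 4.74, so day 7 and uninjured were close. Gas6, a ligand of the TAM receptors, gave 15.8, 22.4 and 36.5. Adm, the vasodilator adrenomedullin, gave 0.665, 0.392 and 1.34 and was lowest at day 7. Of 25 measured genes of the fibroblast and matrix list, 2 were members and 4 were higher on both days. Of the same 25, 5 were at least 2-fold lower at day 21, such as Ogn (-2.34) and Mfap5 (-2.13), against 13.5% of all genes.

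Redox members were 5 in number. Prdx1, a peroxidase, had signals of 4.67, 4.10 and 11.3, or 2.42-fold (1.28 ± 0.13), and only day 21 was high. Glrx, a glutaredoxin, gave 1.37, 2.10 and 3.87, and Txnrd1, thioredoxin reductase, 0.140, 0.244 and 0.334. For Txnrd1 the day 21 ratio of 1.26 was 0.20 with normexp, and another probe well above background gave 0.63. Of 12 measured haem, iron and redox genes, 2 were members and 6 were higher on both days, with Hmox1 at 7.26 and 2.99. The 10 members of lipid metabolism had the highest day 7 median of the role groups, 0.80; Scd2, a fatty acid desaturase of a family with close copies, gave 5.08, 9.90 and 15.1. In the authors' deposited table Scd2 was 5.31 at day 7 and 1.66 at day 21, from log2 values of 7.05 uninjured, 12.4 at day 7 and 8.72 at day 21. Whether these come from 1 probe on all 3 arrays was not tested, so they do not show an opposite order of the days. A group of 13 members acts in membrane traffic or on actin. Among them Rac1, a small GTPase of the cytoskeleton, gave 0.244, 0.132 and 0.529, with 1.11 ± 0.18 at day 21 (0.56 with normexp) and -0.89 ± 0.28 at day 7. Anxa3, an annexin, gave 0.153, 0.302 and 1.44, or 9.43-fold.

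**Figure D3:**
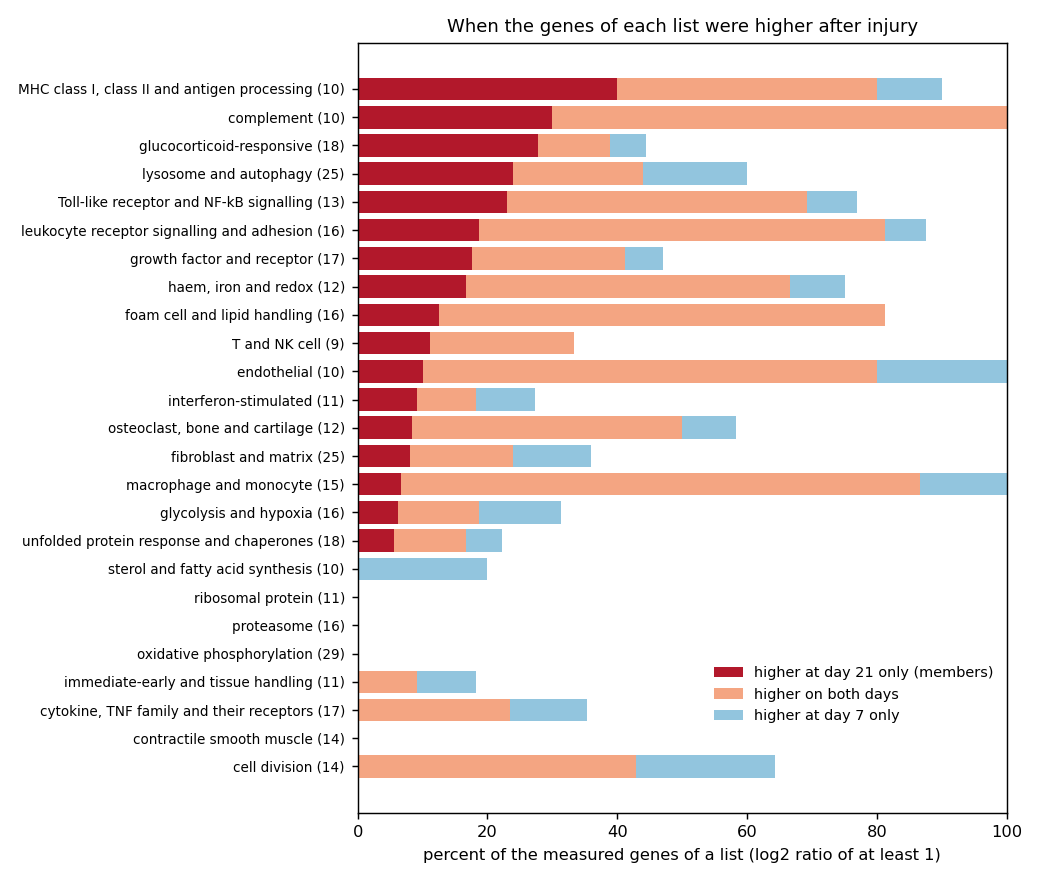
Percent of the measured genes of each list (number in parentheses) that were at least 2-fold higher at day 21 only, on both days or at day 7 only. Members made up 40.0% of the antigen processing list and 6.67% of the macrophage list, where most genes were higher on both days; the glucocorticoid-responsive list was written after the members were seen.

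Other lists held no member. These were cytokine (17 measured genes), oxidative phosphorylation (29), ribosomal protein (11), proteasome (16), cell division (14) and contractile genes (14). The rest were Schwann cell (8), adipocyte (5), skeletal muscle (5), neutrophil (4), immediate-early (11) and sterol genes (10). Members were 3.04% of all genes measured, so lists this small can hold none without differing from that share. Of 14 measured cell division genes 6 were higher on both days, and of 29 oxidative phosphorylation genes 10 were at least 2-fold lower at day 21 and 18 at day 7. Over all genes measured, 6.84% were higher on both days, 13.5% were at least 2-fold lower at day 21 and 13.8% at day 7.

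Further probes of the same genes, on the design shared by the uninjured and day 21 arrays, gave ratios that the rule did not use, though on the same RNA. The further probes of Mtss1, Nxpe3 and Spon1 and 1 of Znrf2 were also on the day 7 design. They were thus open to the choice of the brightest probe. In all, 48 further probes, for 39 members, were well above background on both arrays. Of the 48, 22 had a log2 ratio of at least 1, 15 lay between 0 and 1 and 11 were below 0, with a median of 0.92. The same shares over further probes of all genes were not computed. Mrc1 (3.71), C1s (2.77), Sppl2a (2.58), Tsc22d3 (1.58) and Gas6 (1.71) were again higher. For Kitlg (-0.98), Pou2af1 (-0.73), Relt (-1.04) and Nxpe3 (-1.08) the other probe was lower at day 21, and the probes of Fkbp5 gave -0.45 and 3.05. The values of these genes above therefore hold for 1 probe and not for every probe of the gene.

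**Figure D4:**
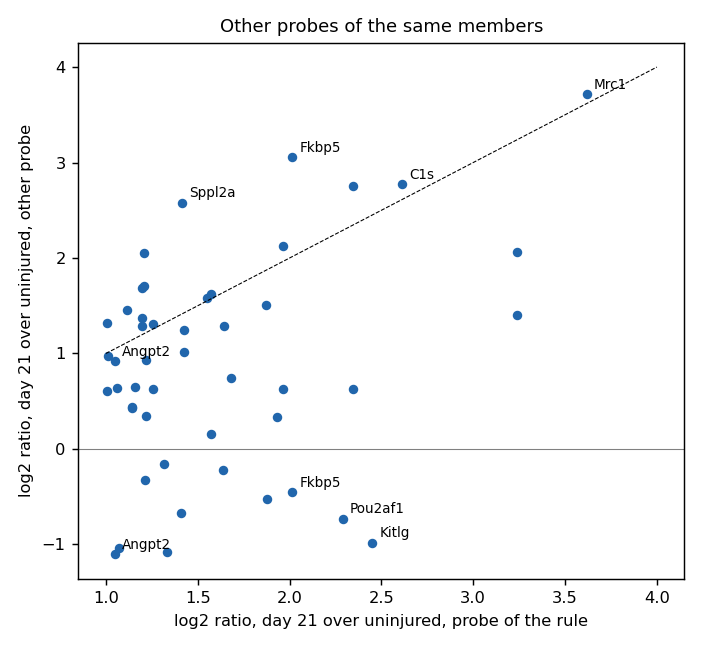
Log2 ratio of day 21 to uninjured for the probe that chose a member (x axis) and for other probes of the same gene (y axis), 1 array per time point. Most of the 48 points lie above 0 on the y axis, and 11 lie below.

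**Figure D5:**
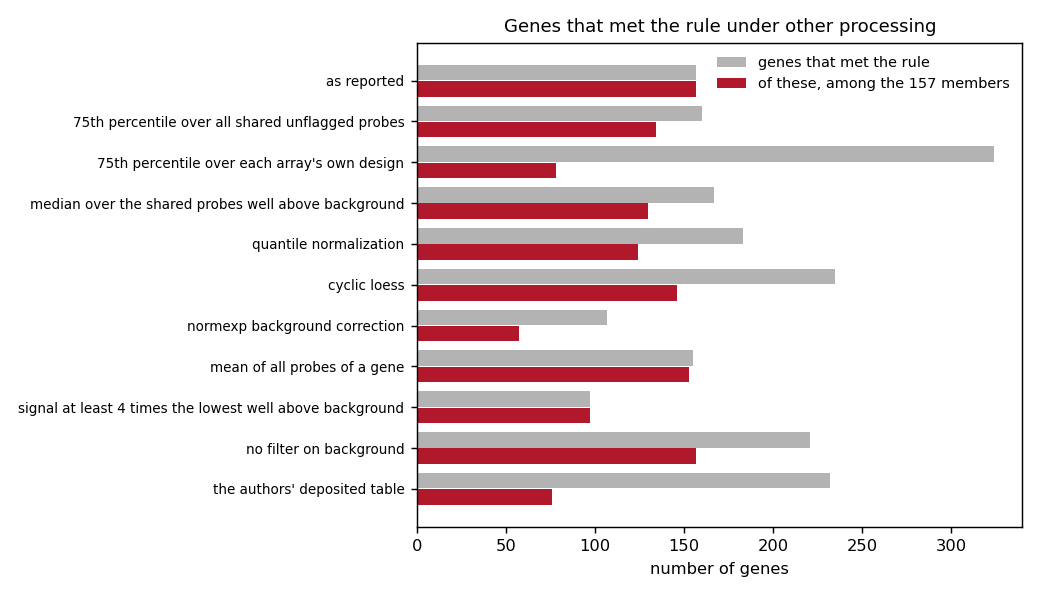
Number of genes that met the rule under each way of processing (grey) and how many of them were among the 157 members (red). The count ran from 97 with a stricter filter on dim probes to 324 with arrays scaled on their own designs, where 78 members were kept.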

How the data were processed

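Cy3-labelled RNA of 3 carotid arteries was measured on 1 Agilent array each, per the labels' protocols. The deposited spot intensity comes from Feature Extraction (10.7.3.1, except 11.0.1.1 at day 7), which subtracted background within an array, per the file headers. Only 10.7.3.1 is named in the submitters' processing notes. A table of log2 values deposited by the authors, whose normalization and centring no source used here states, served as an alternative. Whether a gene's row there holds the same probe on all 3 arrays was not tested.

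Controls and outlier-flagged spots were dropped (0.242% of spots uninjured, 1.46% at day 7 and 0.274% at day 21). Signals were scaled by the 75th percentile, within an array, of the shared probes well above background. Of 10583 unflagged shared probes, 6698 were well above background on all 3 arrays and 5275 of these had a symbol, giving 5172 genes. Symbols came from sequence accessions matched to a RefSeq table (GRCr8), used for names, gene order and promoters and not for positions of probes, whose designs are on another build. Technical SDs come from replicate spots, interpolated over signal, and the number of arrays limits the precision. The rule was run on simulated arrays that differed by set ratios, a constant shift and the spread of replicate spots. Differences between rats and between array designs were not simulated, so that run does not cover them.

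The members and the gene lists were chosen with earlier results of these data known. The role groups and the glucocorticoid-responsive list were written after the members had been seen, and both were then revised once with values in view: that list was shortened, with both versions reported, and the role group first named for it was renamed and lost 1 gene. Genes named are the 20 with the highest day 21 ratio, up to 4 members per list, those beside each threshold, neighbouring members and members with a probe of opposite sign; others were chosen after their values were seen, and some that the rule selects are left out of the text. Alternatives covered scaling, quantile and cyclic loess normalization, normexp (offset 50, on the spot median because the files hold no mean column), probe choice, dim-probe filters and thresholds, in Python 3.11.15 (numpy 2.4.6, pandas 2.3.3) and R 4.3.3 (limma 3.58.1).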

Additional observations from a re-analysis of the deposited data

Results flagged for a closer look

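In 16 members (10.2%) the day 7 ratio was below 0 by more than 2 technical SD. Of the genes that the naming rule selects these were Npc2, Adm and Rac1, which were higher than uninjured at day 21 and lower at day 7 and differed between the days by log2 2.30 for Npc2, 1.78 for Adm and 2.0 for Rac1. Others of the 16 differed as much, such as Ddx6 (2.73) and Atp6ap2 (2.05). With 1 array a day this difference was not tested, and the day 7 array was of another design. The share of all genes measured below 0 by more than 2 technical SD at day 7 was not computed. At another threshold, 715 of all genes measured (13.8%) were at least 2-fold lower at day 7. The 16 are therefore not shown to differ from genes at large.

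Outside the genes measured on all arrays, 15 genes were well above background on the day 21 array alone and at least 2-fold over the uninjured array by their bound. They include Hsd3b7, an enzyme of bile acid synthesis (at least 4.50-fold), Tnfrsf17 (at least 4.47-fold), Adamts5, a protease that cuts aggrecan (at least 3.09-fold), and Ccr1, a chemokine receptor (at least 3.02-fold).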

How the results depend on the processing

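No paired analysis was possible because each group holds 1 array, and no replicate could be left out. As reported, 157 genes met the rule, with medians of 1.36 at day 21, 0.34 at day 7 and 1.18 for day 21 over day 7. Scaling each array on its own design gave 324 genes (78 members kept) and medians of -1.0 at day 7 and 2.59 between the days, beside a shift of all genes at day 7 to a median of -1.24. Quantile normalization gave 0.025 and 1.48 for these. Cyclic loess gave 1.55 at day 21 and 1.46 between the days. Normexp gave 0.77 at day 21, -0.037 at day 7 and 0.78 between the days. Its offset of 50 exceeds the uninjured intensity of dim members, such as Mfsd14b (12.8) and B3galt4 (12.9), and its effect on their ratios was not tested. In the authors' deposited table, with 131 of the members, 232 genes met the rule and 76 of the 131 did; the medians were -0.47 at day 7 and 2.25 between the days, 130 were above 0 at day 21 and 78 lay within 1 of uninjured at day 7. A stricter filter on dim probes left 97 genes, a day 21 threshold of 1.5 left 62, a day 7 limit of 0.5 left 73, and day 21 at least 1 above day 7 left 93. Single genes turned in Mfsd14b (-0.68) and B3galt4 (-0.23) with normexp and Dock8 (-0.054) in the authors' deposited table; the cause was not tested. Of genes past 2-fold at day 21, 43.1% were higher as reported, 56.1% with cyclic loess, 21.3% with normexp, 30.7% with no filter on background and 60.3% in the authors' deposited table. Under 5 other scalings and backgrounds, own-design scaling and the deposited table apart, 47 members kept the rule. C6 was among the members that met it in all 10 alternatives of the values, as were Podxl, Psmb8 and Cndp2. The lowest day 7 ratios of Mrc1 (-1.35), C1s (-1.14), Lgmn (-1.41) and Npc2 (-1.92) were past the limit. In all, 132 of 157 were above 0 at day 21 wherever measured. Dim probes limit the rest: 53 members had an uninjured signal under 0.1 of the 75th percentile.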

Other observations

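Members outside the immune and matrix groups included genes of RNA handling and translation. Ptcd3, a mitochondrial ribosomal protein, had signals of 3.84 uninjured, 5.25 at day 7 and 19.5 at day 21, or 5.09-fold. In the authors' deposited table Ptcd3 was 4.78 at day 7 and 2.28 at day 21, from log2 values of 6.63 uninjured, 11.4 at day 7 and 8.92 at day 21. Whether these come from 1 probe on all 3 arrays was not tested, so they do not show an opposite order of the days. Eif4ebp2, a repressor of translation initiation, gave 0.207, 0.263 and 0.931, and Ddx6, an RNA helicase of processing bodies, 0.266, 0.156 and 1.04. Of 7 members of the endoplasmic reticulum and glycosylation, Entpd5, a nucleotidase, was the highest at 5.08-fold, with a day 7 ratio of 0.70 ± 0.68, and its day 21 log2 ratio of 2.34 was 0.57 with normexp.

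Along the RefSeq gene order, Adm and Ampd3 on chromosome 1, Alcam and Cblb on chromosome 11 and C1r and C1s on chromosome 4 were adjacent members. The share of measured genes that were members was 3.04% in all and ran from 0.69% on chromosome 19 to 6.29% on chromosome 20 (11 of 175), the extremes of 21 chromosomes, with 5.66% on chromosome 18 and 5.21% on chromosome 4.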
